A study of Mus musculus with 2 samples.

Results

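Small leucine-rich proteoglycans are secreted core proteins built of leucine-rich repeats, many of which carry chondroitin, dermatan or keratan sulfate chains. They bind the surface of collagen fibrils, where they limit fibril width and spacing, and they hold growth factors such as TGF-beta in the matrix. Decorin and lumican are the best known of them in skin, where loss of either in mice gives irregular collagen fibrils and fragile skin. The 9 genes described here are Dcn (decorin), Lum (lumican), Bgn (biglycan), Fmod (fibromodulin), Ogn (osteoglycin), Prelp, Aspn (asporin), Omd (osteomodulin) and Podn (podocan), chosen by symbol out of 32285 genes, and all 9 were measured.

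The cells came from the digested dorsal skin of male wild-type (WT) mice, with no treatment and no altered allele, and were sorted as F4/80+ MHCII-hi, a gate for macrophages. One droplet library was made at 9 weeks (young) and 1 at 108 weeks of age (old), each from 2 pooled mice. Both libraries were deposited as 1 matrix in which a barcode suffix, 1 or 2, marks the library, and no source used here ties a suffix to an age. Ages are therefore not compared, and the suffixes serve as 2 libraries of unknown age. Suffix 1 held 3235 barcodes with 35821853 UMIs and suffix 2 held 2022 barcodes with 20382748 UMIs. One barcode sequence occurred in both libraries. A UMI (unique molecular identifier) tags 1 RNA molecule at its 3' end, so levels were not divided by transcript length. A cell was kept if it had 500 genes or more, 1000 UMIs or more and no more than 10% of its UMIs from mitochondrial genes, which left 3797 cells, with a median of 10870 UMIs.

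Although the sort was for macrophages, the cells fell into phagocytes and many other classes, named here from marker genes after clustering on genes that exclude the 9 proteoglycans. Phagocytes (macrophages, dendritic cells and monocytes) made up 2039 cells or 53.7% and fibroblasts 818 cells or 21.5%, of which 314 came from suffix 1 and 504 from suffix 2. How fibroblasts passed the gate was not tested. All 8 pan-fibroblast markers stood at 20 CPM or more in the fibroblasts, against 4 of 8 in phagocytes, where CPM is the number of UMIs per 1000000 UMIs of a class. The fibroblasts split into 6 groups. The Igfbp2 and Inmt groups and those ending in like were named by fixed marker lists. The Cilp and Cpz groups were called by their leading genes other than collagens. Mural cells (46), vascular endothelial cells (282), lymphatic endothelial cells (55) and nerve cells (122) were the other stromal classes described. With 1 library per age there is no replicate test, so that each level is given with an exact 95% Poisson interval, which covers counting error only, and with its value in both libraries. Below, a gene is called different between classes when its ratio is at least 2-fold, the interval of the log2 ratio leaves out 0 and the sign is the same in both libraries.

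Several of the genes lie in clusters on the genome (GENCODE vM21, GRCm38). Dcn (chr10:97479609-97518143) and Lum (chr10:97565128-97572703) follow each other on the plus strand of chromosome 10, 46984 bases apart. Aspn (chr13:49544443-49567565), Omd (chr13:49582462-49592822) and Ogn (chr13:49608046-49624501) stand in this order on the plus strand of chromosome 13, behind their relative Ecm2, and all 3 lie within Cenpp on the opposite strand, which had 5 UMIs in the fibroblasts. Prelp (chr1:133910304-133921414, minus strand) and Fmod (chr1:134037254-134048277, plus strand) are neighbours on chromosome 1, 115839 bases apart. Bgn (chrX:73483602-73495933) is X-linked. Podn (chr4:108014791-108096445, minus strand) overlaps Scp2 on the same strand, so that its counts are uncertain.

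The DNA just before the RefSeq start of 5 of the genes is shown because these 5 mark the cell types described below by their levels, with Aspn, Omd and Ogn as an example of neighbours that differed. The sequences are from GRCm38.p6, 5' to 3' on the strand of the gene, at chr13:49544193-49544442 (Aspn, plus), chr13:49582212-49582461 (Omd, plus), chr13:49607765-49608014 (Ogn, plus), chrX:73483351-73483600 (Bgn, plus) and chr1:133921415-133921651 (Prelp, minus), trimmed to exclude transcribed bases. Capitals mark every match, on either strand, to the TATA box letters TATAAA, to the GC box letters GGGCGG, to the AP-1 letters TGANTCA or to the E-box letters CANNTG, where N is any base and matches may overlap.
Aspn: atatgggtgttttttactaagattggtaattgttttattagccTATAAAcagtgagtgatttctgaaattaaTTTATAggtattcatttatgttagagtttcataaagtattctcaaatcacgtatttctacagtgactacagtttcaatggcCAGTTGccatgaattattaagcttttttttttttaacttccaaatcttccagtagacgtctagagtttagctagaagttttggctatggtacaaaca
Omd: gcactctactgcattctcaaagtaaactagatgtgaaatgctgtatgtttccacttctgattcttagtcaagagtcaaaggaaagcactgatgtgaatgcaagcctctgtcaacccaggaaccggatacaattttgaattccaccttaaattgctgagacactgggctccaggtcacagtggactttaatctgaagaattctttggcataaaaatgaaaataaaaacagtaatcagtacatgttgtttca
Ogn: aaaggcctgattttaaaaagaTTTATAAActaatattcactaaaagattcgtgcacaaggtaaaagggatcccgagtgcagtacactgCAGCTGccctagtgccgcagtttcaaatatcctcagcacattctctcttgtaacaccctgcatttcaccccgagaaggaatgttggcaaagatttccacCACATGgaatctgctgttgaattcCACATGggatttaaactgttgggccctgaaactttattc
Bgn: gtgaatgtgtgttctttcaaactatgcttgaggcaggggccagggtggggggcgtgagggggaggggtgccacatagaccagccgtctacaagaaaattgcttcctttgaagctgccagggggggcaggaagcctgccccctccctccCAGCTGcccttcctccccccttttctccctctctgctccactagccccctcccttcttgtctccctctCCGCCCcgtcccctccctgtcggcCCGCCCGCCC
Prelp: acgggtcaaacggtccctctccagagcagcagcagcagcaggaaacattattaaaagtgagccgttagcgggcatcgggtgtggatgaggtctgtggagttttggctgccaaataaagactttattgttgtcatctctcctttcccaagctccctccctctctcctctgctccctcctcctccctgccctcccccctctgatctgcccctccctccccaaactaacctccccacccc

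The Aspn window held 2 matches to TATAAA, which begin 207 and 178 bases before the start, and 1 to CANNTG. The Ogn window held 2 overlapping TATAAA matches, which begin 229 and 227 bases before the start, and 3 to CANNTG, whereas that of Omd held none of the 4 motifs. The Bgn window held 3 matches to GGGCGG, the last 2 overlapping within 10 bases of the start, and had a GC content of 64.4%, against 30% for Aspn, 38.4% for Omd, 42% for Ogn, 55.6% for Prelp and a median of 52.4% over all promoters. Of 32851 promoter windows of 250 bases, 12.4% held TATAAA, 32.7% held GGGCGG, 6.75% held TGANTCA and 66.2% held CANNTG. A match describes the letters only.

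In fibroblasts the 9 genes together held 14973 CPM (14907 to 15039). Dcn, whose protein coats type I collagen fibrils and binds TGF-beta, accounted for 77.1% of these UMIs and ranked 6th of all 17877 genes with a UMI in fibroblasts. Its level was 11549 CPM (11491 to 11607), with 8286 CPM in suffix 1 and 15309.6 CPM in suffix 2. Lum, a keratan sulfate proteoglycan that regulates fibril assembly, stood at 1130.4 CPM (1112 to 1149), with 1264 CPM in suffix 1 and 976 CPM in suffix 2. Dcn was therefore higher in suffix 2 and Lum in suffix 1. Bgn, the closest relative of decorin and a ligand of Toll-like receptors when freed from the matrix, stood at 777 CPM (762 to 792), with 739 CPM in suffix 1 and 820.1 CPM in suffix 2.

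Aspn, a decorin relative that binds collagen and TGF-beta, reached 560.5 CPM (548 to 573), with 656 CPM in suffix 1 and 450.0 CPM in suffix 2. Ogn, a small member that affects fibril growth, reached 490.1 CPM (478 to 502), with 298 CPM in suffix 1 and 711 CPM in suffix 2. The order of Aspn and Ogn thus turned round between the libraries. Prelp, whose basic end binds heparan sulfate, stood at 257 CPM (248 to 266), with 189 CPM in suffix 1 and 336 CPM in suffix 2. Podn, a collagen-binding protein, stood at 132 CPM (126 to 139), with 141 CPM in suffix 1 and 122 CPM in suffix 2. Omd, best known from bone matrix, and Fmod, the fibromodulin of tendon, closed the order in both libraries. Omd stood at 47.2 CPM (43.6 to 51.0), with 22.4 CPM in suffix 1 and 75.8 CPM in suffix 2. Fmod stood at 30.1 CPM (27.2 to 33.2), with 33.4 CPM in suffix 1 and 26.2 CPM in suffix 2, so that their order too turned round.

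**Figure D1:**
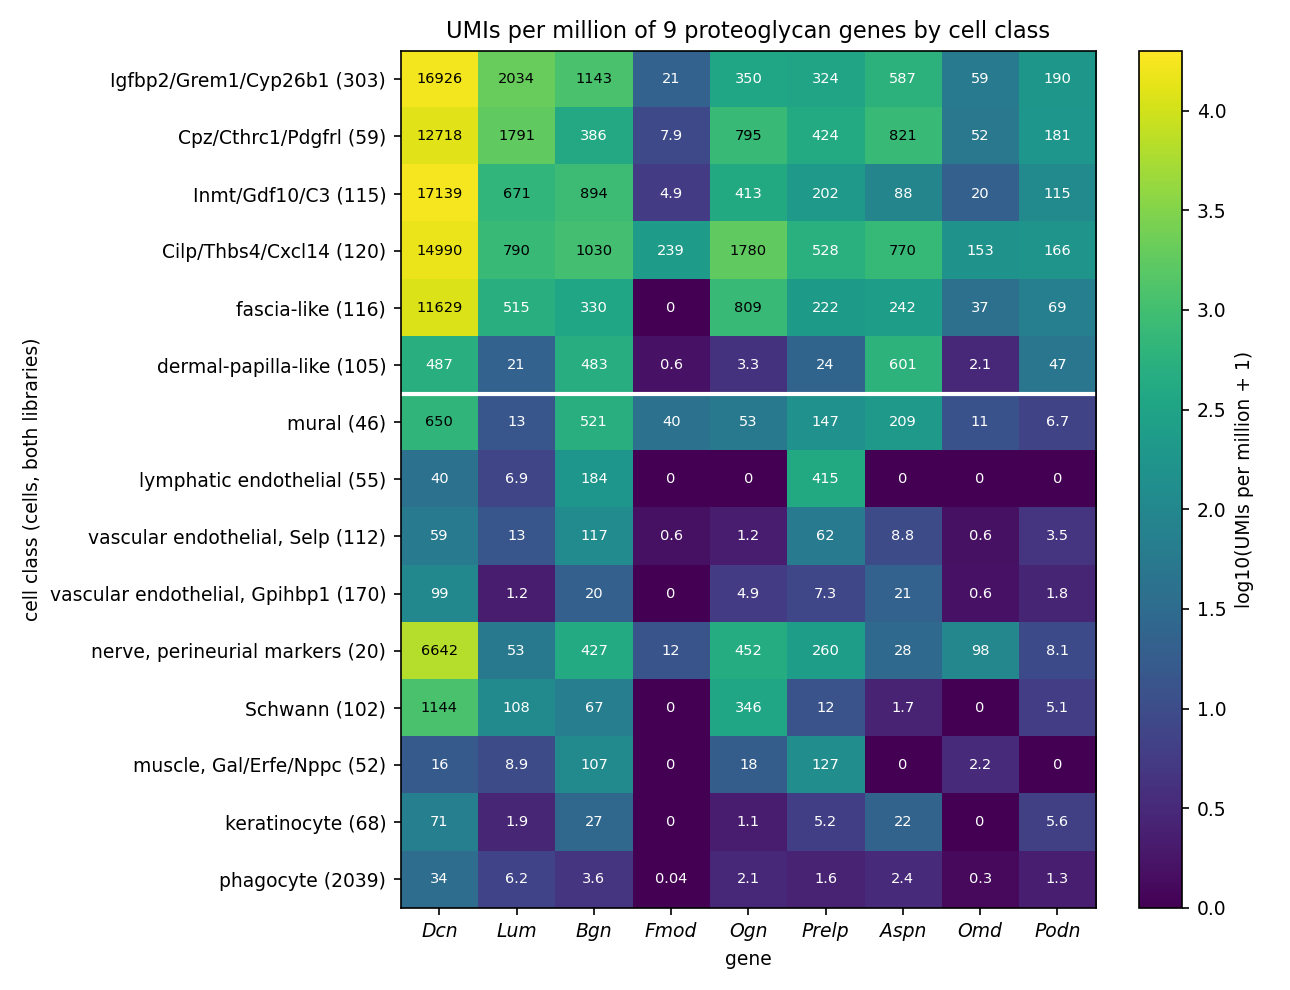
UMIs per 1000000 UMIs of the class for the 9 genes (columns) in each cell class (rows, with cell numbers, both libraries summed), coloured by log10(UMIs per 1000000 + 1). Dcn stands above 10000 in 5 of the 6 fibroblast groups and at 487 in the dermal-papilla-like group, and Prelp stands at 415 in lymphatic endothelial cells.

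The summed level differed between the libraries, 11629 CPM in suffix 1 and 18827 CPM in suffix 2. Dermal-papilla-like cells, which were low in Dcn, made up 75 of 314 fibroblasts in suffix 1 and 30 of 504 in suffix 2. In the fibroblasts without them the sum was 19190.4 CPM in suffix 1 and 19695 CPM in suffix 2, and Dcn was 14203 and 16071 CPM. Lum differed more without them, with 2188 CPM in suffix 1 and 1031 CPM in suffix 2.

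The 6 fibroblast groups differed little in Dcn, apart from the dermal-papilla-like group, and strongly in Lum, Ogn and Aspn. Fmod differed too, but 9 cells held 90.7% of its UMIs, so its calls counted below depend on where these cells fell. The largest group, with 303 cells named by the markers Igfbp2, Grem1 and Cyp26b1, had the highest Lum level, 2034 CPM (1995 to 2074), with 2929.6 CPM in suffix 1 and 1460.4 CPM in suffix 2. Against the other fibroblasts the log2 ratio of Lum was 1.80 (1.75 to 1.85), with 2.21 in suffix 1 and 1.54 in suffix 2. It was under 2-fold at clustering resolution 0.5 (0.50) and when cells were classed one by one with a marker gate in place of clusters (0.92). Dcn at 16926 CPM (log2 ratio 1.03 (1.01 to 1.04)) and Bgn at 1143 CPM (1.04 (0.98 to 1.10)) were also called higher, that is 3 of 9, where 4.62% of all genes tested were. With the dermal-papilla-like cells taken out of the reference, a choice made after seeing the data, Lum alone stayed at 2-fold or more (1.07 (1.02 to 1.12)), where 5.51% of genes were called.

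Within this group Ogn and Lum went opposite ways between the libraries. Ogn stood at 124 CPM in suffix 1 and 494 CPM in suffix 2, while Lum was higher in suffix 1. The group consists of a cluster of 103 cells led by Col1a1, Col1a2 and Mfap4, of which 94 came from suffix 1, and a cluster of 200 cells led by Igfbp2, C1qtnf3 and Cyp2f2, of which 184 came from suffix 2. Ogn was 84.7 CPM in the first cluster and 496 CPM in the second, and Lum was 3044 and 1476 CPM. Cluster and library cannot be told apart here. A further group of 59 cells led by Cpz, Cthrc1 and Pdgfrl, all but 1 of them from suffix 1, had Lum at 1791 CPM (1721 to 1862), Aspn at 821 CPM and Bgn at 386 CPM. Per 100 Dcn UMIs these cells held 14.1 Lum UMIs and the Igfbp2 group 12.0, against 3.91 in the Inmt group, 4.43 in the fascia-like group and 5.27 in the Cilp group.

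The 115 fibroblasts of the Inmt, Gdf10 and C3 group had Dcn as their 3rd gene by level, 17139 CPM (16857 to 17425), and low Aspn. Aspn stood at 88.0 CPM (68.8 to 111), with 142 CPM in suffix 1 and 69.1 CPM in suffix 2, and was the lowest of the 6 groups in both libraries. Its log2 ratio over the other fibroblasts was -2.75 (-3.11 to -2.42), with -2.24 in suffix 1 and -2.83 in suffix 2. With the marker gate per cell it was -0.86, under 2-fold. Fmod (4.89 CPM) and Omd (19.5 CPM) were also called lower, which makes 3 of 9 where 14.8% of genes tested were lower. Without the dermal-papilla-like cells in the reference Lum joined them (-1.24 (-1.36 to -1.12)), giving 4 of 9 against 9.06% of genes. These cells were shallow, with a median of 5598 UMIs against 13046 over all fibroblasts. After each cell was thinned to 2000 UMIs, 14.0% (7.66 to 22.7) of 93 cells held an Aspn UMI, against 58.0% in the Igfbp2 group and 0.609% in phagocytes.

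The 116 fascia-like cells, named from markers of the loose connective tissue below the skin such as Pi16, Ptx3 and Prg4, combined low Bgn with an Ogn level of 809 CPM. Bgn stood at 330.4 CPM (302 to 361), with 181 CPM in suffix 1 and 377 CPM in suffix 2, and its log2 ratio over the other fibroblasts was -1.34 (-1.47 to -1.21). The ratio depended on how cells were filtered and clustered, with -0.58 under a looser filter and -0.59 at resolution 2, both under 2-fold, and -6.28 under the stricter filter. In 20 of these cells led by Pi16, Smpd3 and Sfrp2 it was 12.3 CPM, beside 964 CPM of Ogn. Lum (515 CPM), Aspn (242 CPM) and Podn (69.5 CPM) were also called lower, and Fmod had no UMI in the group, which allows up to 1.97 CPM. This is 5 of 9, where 15.1% of genes tested were lower, and the same 5 were called without the dermal-papilla-like cells in the reference (9.14% of genes). Ogn stood at 809 CPM (764 to 855), with 1031 CPM in suffix 1 and 739 CPM in suffix 2. Its log2 ratio of 0.85 (0.76 to 0.94) stayed under 2-fold, with 2.00 in suffix 1 and 0.07 in suffix 2, but was 1.59 under the looser filter and 1.26 with the gate.

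The 120 cells led by Cilp, Thbs4 and Cxcl14 were the richest in Ogn, Omd, Prelp and Fmod. Their best fixed marker list was the fascia-like one, by a lead too small for that name. Thbs4 stood at 7155 CPM in 5 of these cells, those with 10 or more Fmod UMIs, and at 98.0 CPM in the others. Ogn stood at 1780.2 CPM (1704 to 1859), nearly equal in the libraries with 1737 CPM in suffix 1 and 1788 CPM in suffix 2, and its log2 ratio was 2.28 (2.20 to 2.35). Every one of the 120 cells held an Ogn UMI, and after thinning 94.0% (88.1 to 97.6) did, against 35.4% in the Igfbp2 group. Omd stood at 153 CPM (131 to 177), with 137 CPM in suffix 1 and 156 CPM in suffix 2 and a log2 ratio of 2.04 (1.78 to 2.30). Prelp stood at 528 CPM (487 to 572), with 689 CPM in suffix 1 and 499 CPM in suffix 2. With Fmod these are 4 of 9 called higher, where 6.86% of genes tested were. Without the dermal-papilla-like cells in the reference Prelp fell short of 2-fold (0.77 (0.64 to 0.89)) and 3 of 9 were called, where 7.33% of genes were. Aspn differed between the libraries, with 1635 CPM in suffix 1 and 613 CPM in suffix 2, and suffix 1 gave only 18 of the 120 cells.

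**Figure D2:**
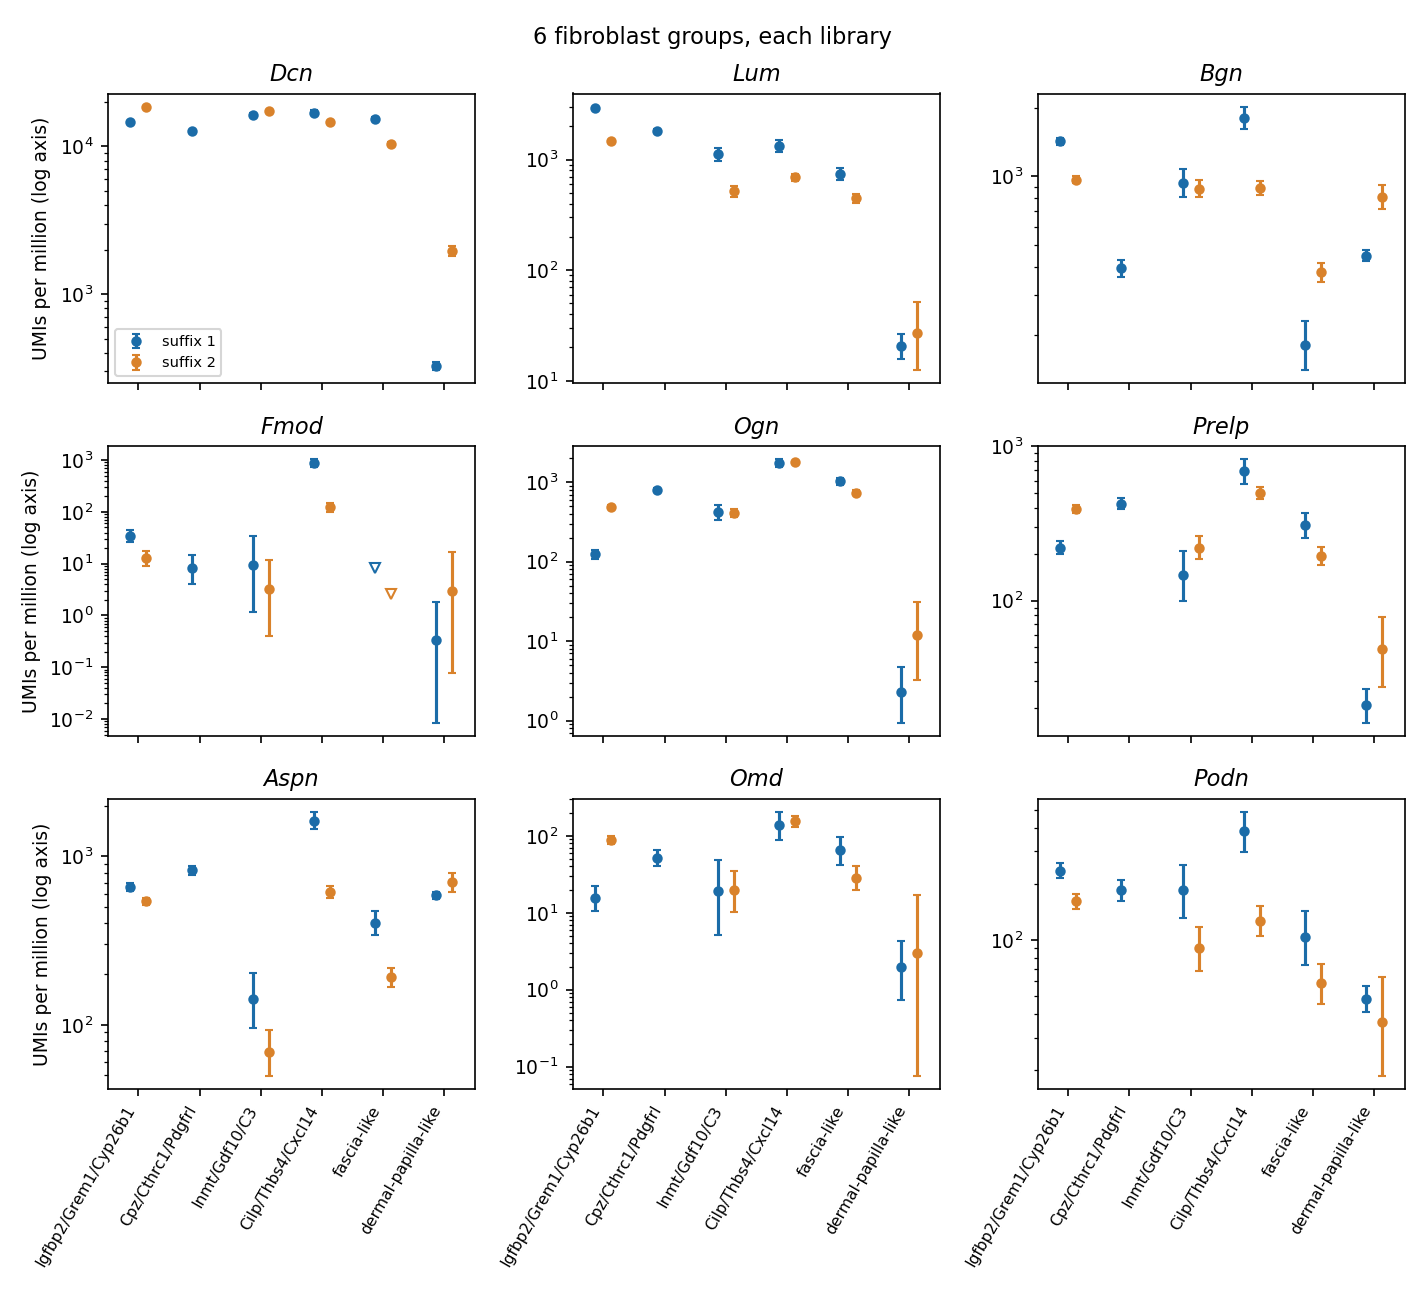
UMIs per 1000000 (log axis) of each gene in the 6 fibroblast groups, with suffix 1 in blue and suffix 2 in orange, bars for exact 95% Poisson intervals and open triangles for the limit that a count of 0 allows. The 1 suffix 2 cell of the Cpz group is not drawn. Aspn is lowest in the Inmt group in both libraries, while Dcn, Lum, Ogn and Prelp are lowest in the dermal-papilla-like group.

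Fmod came from very few cells. Of 818 fibroblasts 30 held a Fmod UMI, and 9 cells with 13 to 95 UMIs each held 90.7% of its 397 UMIs. Of these 9 cells 5 were in suffix 1 and 4 in suffix 2, and 5 lay in the Cilp group and 4 in the Igfbp2 group. None lay in the Inmt, fascia-like or dermal-papilla-like groups, where Fmod was called lower. The intervals behind those calls treat each UMI as independent and do not cover the scarcity of such cells. Thbs4, a thrombospondin of tendon matrix, stood at 4909.5 CPM in the 9 cells and 12.8 CPM in the other fibroblasts, with a UMI in 5 of the 9. Tnmd (tenomodulin), a tendon and ligament gene, stood at 429 against 83.1 CPM, with a UMI in 8 of the 9. Aspn was also high in them, 3183 against 539 CPM, with a UMI in all 9. Scx and Mkx, transcription factors of tendon cells, each had a UMI in 2 of the 9. The cells were picked for their Fmod count after the values were seen, so these levels are a description. The Fmod levels of the Cilp group, 883 CPM in suffix 1 and 123 CPM in suffix 2, rest on 5 such cells.

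The 105 dermal-papilla-like cells differed from all other fibroblasts in having little Dcn, Lum and Ogn while Aspn stood near the level of other fibroblasts and Bgn somewhat below it. The dermal papilla is the fibroblast cluster at the base of the hair follicle that instructs its growth. The group was named from its markers, of which 7 of 8 (Prlr, Crabp1 and others) stood at 20 CPM or more. Dcn stood at 487 CPM (463 to 511), a log2 ratio of -4.97 (-5.05 to -4.90). The libraries differed, with 325 CPM in suffix 1 and 1960.4 CPM in suffix 2 and log2 ratios of -5.45 in suffix 1 and -3.04 in suffix 2, but both lay far below the other fibroblasts. Lum stood at 21.2 CPM (16.6 to 26.8) (log2 ratio -6.15 (-6.51 to -5.81)) and Ogn at 3.29 CPM (1.64 to 5.88) (-7.64 (-8.64 to -6.80)). Prelp, Omd, Podn and Fmod were also called lower, which makes 7 of 9, where 12.5% of all genes tested were lower.

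Aspn had the highest level of the 9 genes in the pooled group, with 36.0% of their UMIs, and in suffix 1. The order turned in suffix 2, where Dcn and Bgn were above Aspn, and in the 80 cells without markers of a second compartment, where Dcn was above it. Aspn stood at 601 CPM (575 to 628), with 589.6 CPM in suffix 1 and 704 CPM in suffix 2, and at 547 CPM in the other fibroblasts. The log2 ratio of 0.14 (0.06 to 0.21) had opposite signs in the libraries, with -0.26 in suffix 1 and 0.69 in suffix 2. Bgn stood at 483 CPM (460.1 to 508), with 447 CPM in suffix 1 and 813 CPM in suffix 2 and a log2 ratio of -0.86 (-0.94 to -0.78), with -1.10 in suffix 1 and -0.01 in suffix 2. This is under 2-fold, but the ratio was beyond 2-fold with a stricter filter on cells (-1.20), at clustering resolution 2 (-1.22) and with a marker gate per cell (-1.33). By rank among the genes of these cells Aspn was 253rd, Dcn 313th and Bgn 316th.

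The pattern was visible in single cells. Of the 105 cells 93 held an Aspn UMI (median 7) and 95 a Bgn UMI (median 10), while 27 held no Dcn UMI and 37 held 10 or more. Among the 27 cells without Dcn, 26 held Aspn and 22 held Bgn. After thinning to 2000 UMIs, 41.7% (32.1 to 51.9) of 103 cells held Dcn, 70.9% (61.1 to 79.4) Aspn and 65.0% (55.0 to 74.2) Bgn, while each of 667 other fibroblasts held Dcn. In phagocytes, which should lack these genes, the thinned shares were 6.70%, 0.609% and 1.02%, and in keratinocytes 1.52%, 4.55% and 3.03%. Median depths before thinning were 10498 UMIs in the dermal-papilla-like cells, 11036 in phagocytes and 22854 in keratinocytes.

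The 8 pan-fibroblast markers were low in these cells too, summing to 3313 CPM against 72840 CPM in all fibroblasts, and Dcn and Lum stood low together with Col1a1, Col1a2 and Col3a1, which are among those markers. Of the 105 cells 25 also carried markers of a second compartment, and these held most of the UMIs of the group. The pooled levels, ratios, ranks and calls above are therefore mainly those of such cells. In the other 80 cells Dcn was 857, Aspn 676 and Bgn 638 CPM. The keratinocyte list summed to 196 CPM in the group, with 2 of 9 markers at 20 CPM or more, and its part in the result was not tested.

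**Figure D3:**
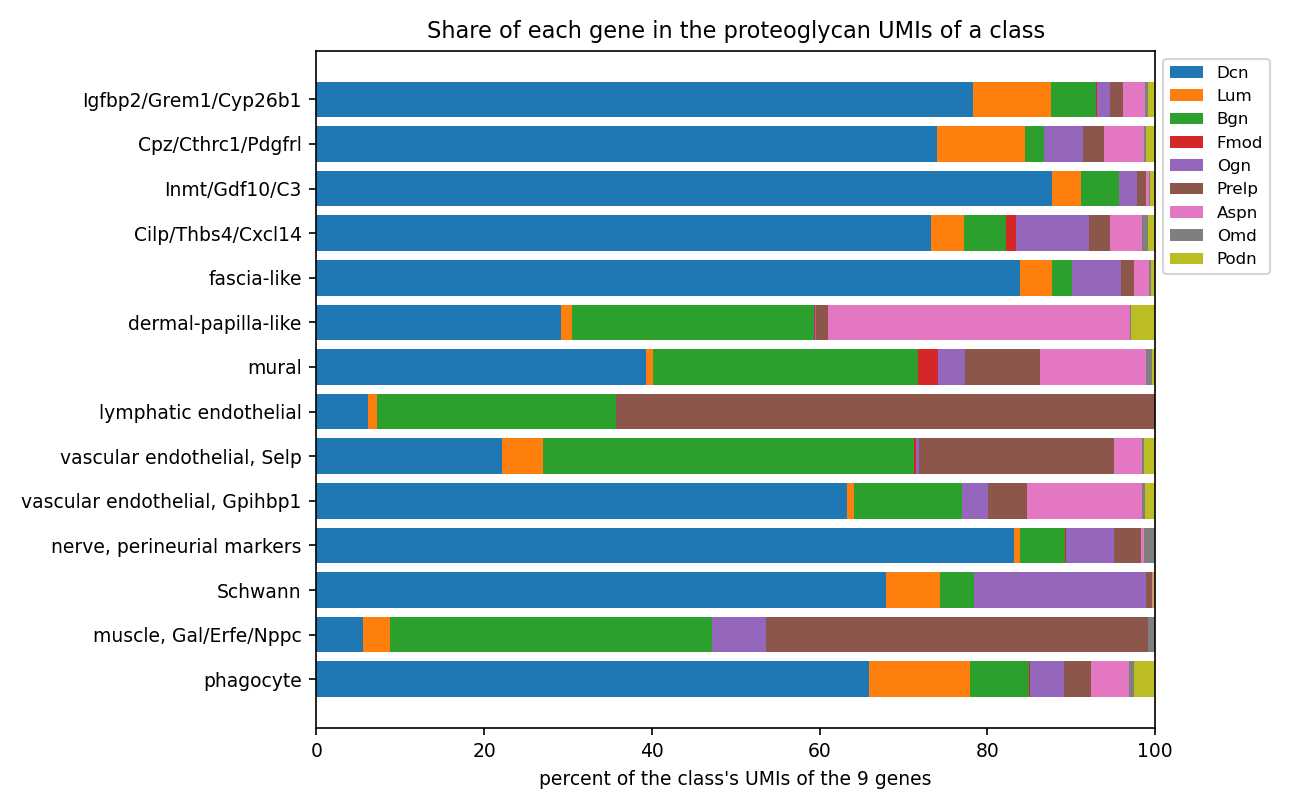
Percent of the UMIs of the 9 genes that each gene contributes in each class, both libraries summed. Dcn fills most of the bar in 5 fibroblast groups, Aspn takes 36.0% in the pooled dermal-papilla-like cells, where Dcn was higher than Aspn in suffix 2 alone, and Prelp takes 64.3% in lymphatic endothelial cells.

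Against vascular endothelial cells all 9 genes were called higher in fibroblasts, where 18.1% of genes tested were higher and 17.5% lower. The median log2 ratio of the 9 was 6.30, against -0.06 over the 8658 genes tested. The smallest ratios were those of Prelp, 2.87 (2.61 to 3.15), and Bgn, 3.48 (3.29 to 3.67), and that of Dcn was 7.20 (7.03 to 7.38). Against mural cells, the pericytes and smooth muscle of vessels, 6 of 9 were called higher in fibroblasts (Dcn, Lum, Ogn, Aspn, Omd and Podn), where 14.5% of genes were, and the median log2 ratio was 2.08, against -0.04 over all genes tested.

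The 46 mural cells were led by Acta2, Gm13889 and Tagln. Another cluster, of 106 cells led by Rgs5, Fabp4 and Hbb-bs, had all 10 mural and all 8 endothelial markers. It was classed as mixed and left out, so the mural levels do not cover it. Mural cells shared Bgn, Prelp and Aspn with the fibroblasts and also held Fmod. Bgn stood at 521 CPM (457 to 593), with 349 CPM in suffix 1 and 647 CPM in suffix 2, and the log2 ratio of fibroblasts over mural cells was 0.58 (0.39 to 0.77). Aspn stood at 209 CPM (169 to 256), with 243 CPM in suffix 1 and 185 CPM in suffix 2, and Prelp at 147 CPM (114 to 187), with 143 CPM in suffix 1 and 150.2 CPM in suffix 2. Fmod was found in 13 of 46 mural cells, at most 4 UMIs each, and stood at 40.1 CPM (23.8 to 63.4), with 26.4 CPM in suffix 1 and 50.1 CPM in suffix 2. The log2 ratio of fibroblasts over mural cells for Fmod was -0.42 (-1.09 to 0.35), which includes 0. The fibroblast sum, however, came mostly from 9 cells, and 30 of 818 fibroblasts held a Fmod UMI, against 13 of 46 mural cells. Fibroblast groups without any of the 9 stood at 7.88 CPM or less. After thinning the shares with Fmod were 2.78% (0.07 to 14.5) in mural cells and 1.43% (0.72 to 2.54) in fibroblasts. In contrast to the fibroblasts, no mural cell held 10 or more Fmod UMIs.

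Dcn in mural cells, 650.5 CPM (578 to 729.5), rested on few cells. Of the 46 cells 34 held no Dcn UMI and 3 held 10 or more. Without these 3, an alternative added after seeing the data, Dcn was 33.5 CPM, about the 33.7 CPM of phagocytes, while Bgn stayed at 514, Aspn at 206, Prelp at 141 and Fmod at 43.1 CPM. After thinning, 63.9% (46.2 to 79.2) of 36 mural cells held Bgn and 30.6% (16.3 to 48.1) held Aspn, against 1.02% and 0.609% of phagocytes.

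Lymphatic endothelial cells, whose 5 markers including Prox1 and Mmrn1 all stood at 20 CPM or more, had Prelp as their leading gene of the 9. Prelp stood at 415 CPM (374 to 460.4), with 413 CPM in suffix 1 and 420.2 CPM in suffix 2, against 257 CPM in fibroblasts and 35.0 CPM (29.0 to 42.0) in vascular endothelial cells. The log2 ratio of lymphatic over vascular endothelial cells was 3.57 (3.26 to 3.88), with 3.65 in suffix 1 and 3.51 in suffix 2. That of fibroblasts over lymphatic cells was -0.69 (-0.85 to -0.53), with -1.13 in suffix 1 and -0.32 in suffix 2, so Prelp was higher in lymphatic cells than in fibroblasts, by less than 2-fold. Prelp was found in 49 of 55 lymphatic cells, and in 34 of the 37 that held no Dcn. After thinning, 45.1% (31.1 to 59.7) of 51 lymphatic cells held it, against 3.85% (1.86 to 6.96) of 260 vascular cells and 0.305% of phagocytes.

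Bgn was the other member of the lymphatic cells, at 184 CPM (156 to 214), with 176 CPM in suffix 1 and 198 CPM in suffix 2, and its log2 ratio over vascular endothelial cells was 1.40 (1.10 to 1.69), with 0.96 in suffix 1 and 1.93 in suffix 2. With the stricter filter on cells it was 0.81, under 2-fold. Bgn and Prelp were 2 of 4 members called higher, where 11.2% of genes tested were. Aspn was called lower, 1 of 4 where 12.4% of genes were, with no UMI against 50 UMIs in vascular cells, and 5 members were too low in both classes to be tested. Most of the vascular Aspn UMIs lay in cells with markers of a second compartment. Without such cells Aspn was also too low in both classes to be tested, so its call depended on them. The lymphatic cells held no UMI of Fmod, Ogn, Aspn, Omd or Podn, each of which allows up to 3.44 CPM, and 40.2 CPM of Dcn. In fibroblasts 8 of 9 genes were called higher than in lymphatic cells, the exception being Prelp, where 17.7% of genes tested were.

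Vascular endothelial cells fell into a cluster of 112 cells led by Selp, a venular adhesion molecule, and a cluster of 170 led by Hbb-bs, Fabp4 and Gpihbp1, a capillary gene. Bgn stood at 117 CPM (101 to 135) in the Selp cluster, with 182 CPM in suffix 1 and 72.4 CPM in suffix 2, and at 20.2 CPM (13.9 to 28.4) in the Gpihbp1 cluster, with 15.2 CPM in suffix 1 and 25.6 CPM in suffix 2. The log2 ratio was 2.54 (2.00 to 3.11), with 3.58 in suffix 1 and 1.50 in suffix 2. Prelp stood at 61.5 CPM (50.3 to 74.5) and 7.35 CPM (3.80 to 12.8), a log2 ratio of 3.07 (2.20 to 4.06), with 3.84 in suffix 1 and 2.49 in suffix 2. Aspn went the other way, with 8.79 and 21.4 CPM and a log2 ratio of -1.29 (-2.27 to -0.38). Of the 282 cells 50 carried markers of a second compartment, and without them Bgn in all vascular endothelial cells was 39.4 CPM in place of 69.8, and Prelp 27.4 in place of 35.0. Aspn fell the most, to below its level in either cluster, so most of its UMIs lay in those cells. Its difference between the clusters was not tested without them. Hemoglobin genes led the Gpihbp1 cluster, and the part of red cell RNA in its levels was not tested.

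Prelp and Bgn without Dcn were also found in 52 cells of the muscle list led by Gal, Erfe and Nppc. Prelp stood at 127 CPM (96.0 to 164), with 144 CPM in suffix 1 and 110.4 CPM in suffix 2, and Bgn at 107 CPM (78.7 to 142), with 184 CPM in suffix 1 and 30.9 CPM in suffix 2. Prelp was found in 27 of 52 cells, at most 5 UMIs each, and 46 of the 52 held no Dcn.

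Ogn was also found in nerve cells, in part without Dcn. Of 122 nerve cells, 20 with 3 or more markers of the perineurium, the sheath around a nerve bundle, are described apart, a limit set after seeing the data, and 13 cells held 2 such markers. The other 102 are called Schwann cells, the glia of peripheral nerve, and all 9 markers of the Schwann list stood at 20 CPM or more in them. Ogn stood at 346 CPM (300.1 to 397) in the Schwann cells, with 446 CPM in suffix 1 and 278 CPM in suffix 2. The pooled fibroblast level of 490.1 CPM was higher by less than 2-fold, with a log2 ratio of 0.50 (0.30 to 0.71), and the libraries gave opposite signs, -0.58 in suffix 1 and 1.36 in suffix 2.

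Of the 102 Schwann cells 33 held Ogn, at most 28 UMIs each, and 24 of these held no Dcn UMI and together 168 Ogn UMIs. Dcn at 1144 CPM rested on 4 cells, which held 96.6% of its UMIs, while 76 cells held none. Without these 4 cells, an alternative added after seeing the data, Dcn was 41.5, Lum 1.81, Bgn 56.0 and Ogn 367 CPM. After thinning, 27.3% (18.3 to 37.8) of 88 Schwann cells held Ogn, against 0.609% (0.315 to 1.06) of phagocytes and 50.1% (46.5 to 53.7) of fibroblasts. The median depth of the Schwann cells was 4274 UMIs, against 9218 UMIs in the 20 cells with perineurial markers. Those markers were counted without thinning, so a deeper cell could reach the limit more easily. Neither Fmod nor Omd had a UMI in the Schwann cells, which allows up to 5.06 CPM for each.

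Bgn in the Schwann cells was low, 67.5 CPM (48.2 to 91.9), with 58.3 CPM in suffix 1 and 73.7 CPM in suffix 2, against 777 CPM in fibroblasts. In the 20 cells with perineurial markers all 9 Schwann markers also stood at 20 CPM or more. Their 8 pan-fibroblast markers summed to 2377 CPM, against 72840 CPM in fibroblasts. Dcn stood in them at 6642 CPM (6323 to 6972), Ogn at 452, Bgn at 427 and Prelp at 260.5 CPM. Lum was 52.9 and Aspn 28.5 CPM, against 1130 and 560 CPM in fibroblasts. Omd stood at 97.7 CPM, with 123 CPM in suffix 1 and 48.1 CPM in suffix 2. Of these 20 cells 17 held 10 or more Dcn UMIs and 17 held Ogn.

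**Figure D4:**
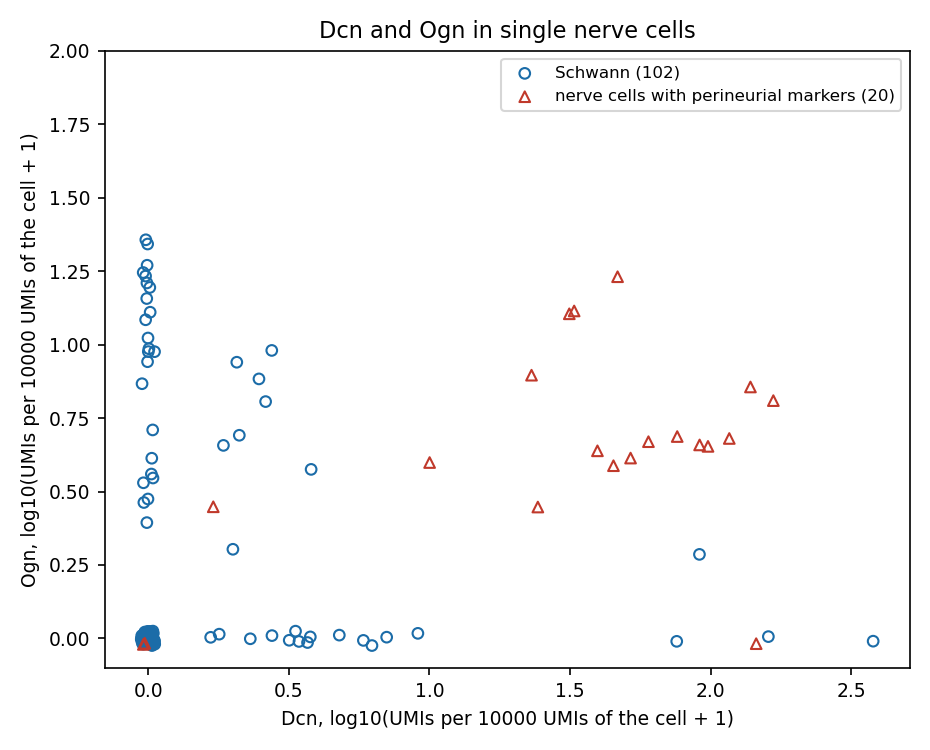
Dcn (x axis) and Ogn (y axis) in 122 single nerve cells, each as log10(UMIs per 10000 UMIs of the cell + 1), with a small random shift along both axes so that points do not cover each other. Circles are Schwann cells and triangles cells with perineurial markers. Of the Schwann cells 24 lie on the left edge with Ogn and no Dcn, and most triangles have both genes.

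The genes that build or bind these proteoglycans were examined in lists, as fibroblasts over vascular endothelial cells, against the same backgrounds of 18.1% higher and 17.5% lower. Of 9 other family members 1 could be tested, Ecm2, the neighbour of Aspn, which was higher in fibroblasts. Ecm2 stood at 146 CPM in fibroblasts, 28.4 in vascular and 114 in lymphatic endothelial cells. It also stood at 147 CPM in the nerve cells with perineurial markers. Chadl was higher in Schwann cells, at 57.4 CPM, than in fibroblasts, at 4.85 CPM. Of the family 4 genes had fewer than 10 UMIs in all kept cells.

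Of 20 genes for the synthesis of chondroitin and dermatan sulfate chains 14 were tested, 8 were higher in fibroblasts and 1 lower, with a median log2 ratio of 1.16. Chpf, a chain polymerizing factor, stood at 84.5 against 1.20 CPM, and Dse, the epimerase that turns chondroitin into dermatan sulfate, at 69.8 against 4.19 CPM. Dse was at 70.3 CPM in phagocytes as well. Csgalnact1, which starts chondroitin chains, was the 1 lower gene, at 7.57 against 27.2 CPM. Of 7 keratan sulfate genes 5 were tested, 1 was higher (B4galt1, 136 against 61.7 CPM) and 3 were lower (B4galt4, Chst1 and Chst2), with a median of -1.70. Chst1, a keratan sulfate sulfotransferase, stood at 5.07 against 19.2 CPM.

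All 10 collagen genes of the list were higher in fibroblasts, with a median log2 ratio of 5.18, but Col1a1, Col1a2 and Col3a1 are also markers that set the class. Col6a1, a chain of the type VI collagen that decorin and biglycan bind, stood at 607 CPM in fibroblasts, 147 in mural and 29.9 in vascular endothelial cells. Of 7 genes for collagen processing and cross-linking 5 were higher and 1 lower. Lox, the lysyl oxidase, stood at 402 against 1.80 CPM, and Pcolce, an enhancer of procollagen cleavage, at 633 against 33.2 CPM. The 1 lower gene was Plod2, a collagen lysyl hydroxylase, at 11.1 against 23.1 CPM.

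Of 11 receptors and ligands of the proteoglycans 9 were tested, 5 were higher in fibroblasts (Tlr2, Egfr, Lrp1, Cd44 and Tgfb2) and 2 lower (Cd14 and Tgfb1), with a median of 1.20. Lrp1, an endocytic receptor of decorin, stood at 524 CPM in fibroblasts, 266 in phagocytes and 13.5 in vascular endothelial cells. Tlr2 and Cd14, through which soluble biglycan signals, stood at 138 and 1467 CPM in phagocytes and at 19.3 and 9.39 CPM in fibroblasts. Tgfb1, the growth factor gene, stood at 417 CPM in lymphatic endothelial cells, 367 in phagocytes and 62.9 in fibroblasts.

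The genes whose pattern was most like each member were found over 26 points, each a class of 20 cells or more in 1 library, by Pearson's correlation of log2(CPM + 10) among 11382 genes. The points share libraries and free RNA and differ in depth, so the values are a description. For Dcn they were Igfbp6 (0.95), Serpinf1 (0.93) and Mmp2 (0.93), of which Serpinf1 is a class marker. For Lum they were Mmp23 (0.94), Col5a1 (0.94) and Col1a2 (0.93), with Col1a2 a class marker. Aspn was followed by Twist1 (0.94), Gpr153 (0.94) and Zic1 (0.94), Ogn by Mfap5 (0.97), Abca8a (0.93) and Entpd2 (0.92), and Prelp by Ecm2 (0.93), Serping1 (0.91) and Fndc1 (0.91). The nearest to Bgn were Lix1l (0.91), Pkd2 (0.91) and Fkbp7 (0.91). Fmod had the weakest likeness, with Vstm4 (0.77), Nalcn (0.75) and Kcnab1 (0.73). Omd had Pi16 (0.93), Cd248 (0.93) and Nox4 (0.92), with Pi16 a class marker, and Podn had Mrc2 (0.96), Svep1 (0.95) and Scara5 (0.95).

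Among the members themselves Dcn and Lum, the neighbours on chromosome 10, had the highest correlation over these points, 0.93. Pairs on different chromosomes came close, with 0.91 for Lum and Podn and 0.90 for Dcn and Ogn. The neighbours on chromosome 13 were less alike, with 0.60 for Ogn and Aspn, 0.81 for Ogn and Omd and 0.74 for Aspn and Omd. For Prelp and Fmod on chromosome 1 it was 0.51. Ogn with hardly any Aspn was found in Schwann cells (346 and 1.69 CPM) and Aspn with hardly any Ogn in dermal-papilla-like cells (601 and 3.29 CPM).

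Phagocytes, which are not known as a source of these matrix genes, held all 9 at low levels. Together they stood at 51.2 CPM (48.5 to 54.1), with 52.0 CPM in suffix 1 and 48.7 CPM in suffix 2, which is 0.342% (0.324 to 0.361) of the fibroblast level, 0.448% in suffix 1 and 0.259% in suffix 2. Dcn stood at 33.7 CPM (31.5 to 36.1), or 0.292% of the fibroblast level, and Podn had the highest pooled ratio, 0.980% (0.672 to 1.38). The order differed by library, with Omd highest in suffix 1 (1.18%) and Prelp in suffix 2 (0.416%). Collagen genes and Sparc, a matrix glycoprotein, gave ratios of the same order, 0.390% for Col1a1, 0.387% for Col1a2 and 0.635% for Sparc.

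The UMIs were spread thinly. Of 2039 phagocytes 1247 held no UMI of any of the 9 genes, 747 held 1 to 3, 42 held 4 to 9 and 3 held 10 or more, the most being 25. These 3 cells held 3.83% of the 1304 UMIs. Dcn gave 0.421 UMIs per phagocyte, 0.385 in suffix 1 and 0.552 in suffix 2. Among keratinocytes Dcn stood at 70.8 CPM, but with 92.1% of its UMIs in 5 of 68 cells. Shares and levels of other classes near these values were not read as expression, and their source was not tested.

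**Figure D5:**
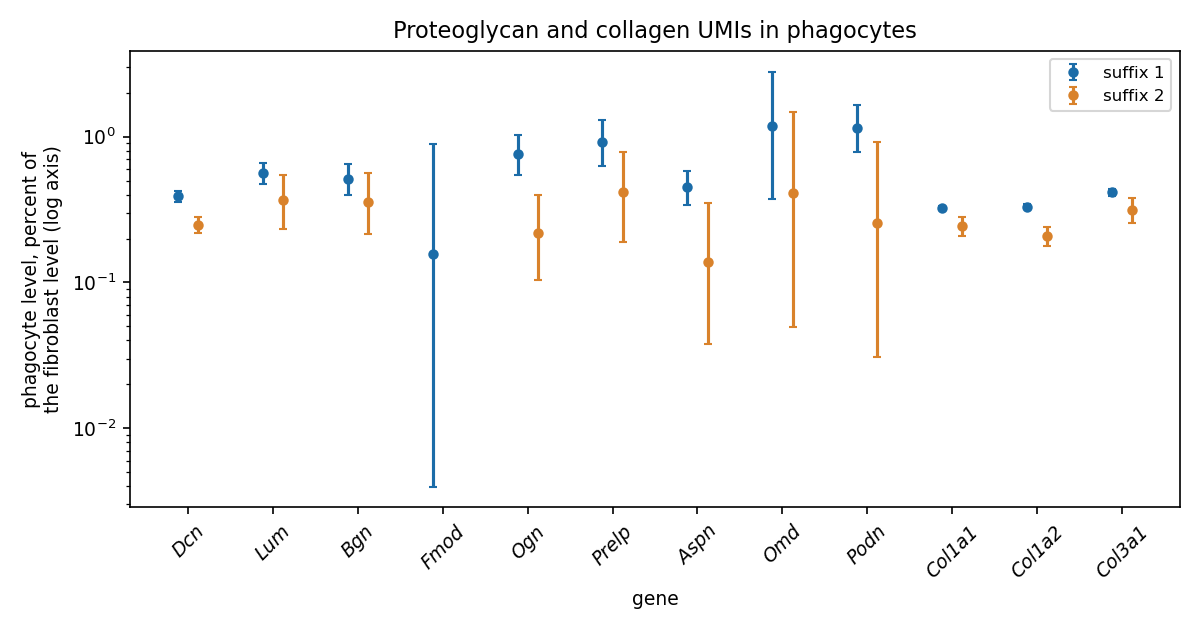
Level of each gene in phagocytes as a percent of its level in fibroblasts (log axis), for suffix 1 in blue and suffix 2 in orange, with exact 95% intervals for counting error. The 9 proteoglycan genes and 3 collagen genes lie between 0.138% and 1.18%, and Fmod in suffix 2, with no UMI, is not drawn.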

How the data were processed

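Droplet libraries (10x 3' chemistry) of sorted skin cells were read into UMI counts by the authors with Cell Ranger 4.0.0 on mm10, per the labels and processing notes, and both libraries were deposited as 1 matrix of raw whole-number counts, with no normalization. The sources used here do not say whether barcodes were filtered before deposit.

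The 9 genes, the marker lists and the gene lists were chosen with earlier results of these data known. All 9 members are named, other lists by at most 4 examples, and the most alike genes by rank. In Python 3.11.15 with scanpy 1.11.5, counts of the 3797 kept cells were scaled and logged, 2000 variable genes were chosen without the 73 genes of interest, and Leiden clustering (leidenalg 0.10.2, seed 1, resolution 1, with 15 neighbours from 30 components) gave 25 clusters. The 1482 stromal cells were clustered again, into 17 clusters. Clusters were named with 26 marker lists, a name needing 3 markers at 20 CPM and at least 2-fold over the median cluster. The clusters had been seen when this rule was set, and the names are rebuilt. Clusters of 151 cells with markers of more than 1 compartment were left out. No doublet caller was run. Instead, 272 cells with markers of 2 compartments were left out as an alternative.

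UMIs were summed per class and library (scipy 1.17.1). Levels have exact Poisson intervals, shares exact Clopper-Pearson intervals and ratios exact conditional binomial intervals, all at 95% and for counting error only. A sum of 0 is replaced by 3 counts as a bound. Calls were made for genes at 10 CPM or more in at least 1 of the classes. No p-value was computed, since each age is 1 library of 2 pooled mice. The calls were tested on simulated data with 200 genes changed 4-fold. These 200 were drawn only from genes well above the 10 CPM limit. Recovery near that limit, or of changes near 2-fold, was therefore not tested. The simulated sums were Poisson draws from a shared profile, for classes of the marker gate, with no spread between cells or libraries. The rates that follow cover counting error only, and not genes held by few cells such as Fmod. For fibroblasts over mural cells 197 of them were recovered and 152 of 7719 unchanged genes (1.97%) were called, and for fibroblasts over vascular endothelial cells all 200 were recovered and 0 of 7820 unchanged genes were called. Of 32285 gene identifiers, 32235 were found in GENCODE vM21. Promoters are from RefSeq, where 7 of the 9 genes matched, and Dcn and Lum did not. The alternatives were other cell filters, another resolution and changes to the class definition, the doublets, the weighting, the library, the thinning depth and the phagocytes used.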

Additional observations from a re-analysis of the deposited data

Results flagged for a closer look

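The 1460 barcodes that the filter on cells left out, with 5403713 UMIs, also held all 9 proteoglycan genes, above the 0.555 CPM that a count of 0 allows there. Dcn stood at 930 CPM (904 to 956), Bgn at 134, Lum at 81.4, Ogn at 78.3, Aspn at 77.5, Prelp at 66.3, Podn at 14.4, Fmod at 12.8 and Omd at 7.77 CPM. These barcodes were put in no class. Each age is 1 library, so the search for libraries apart from their group did not apply.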

How the results depend on the processing

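No paired analysis was possible because the columns carry no replicate number, each age is 1 library and no result comes from a test. The level of the 9 genes in fibroblasts (14973 CPM) was 14255 CPM with the stricter filter on cells, 15483 with a marker gate per cell in place of clusters, 17401 without cells of 2 compartments, 17437 as a mean over cells, 11629 in suffix 1 and 18827 in suffix 2. The log2 ratio of the 9 genes in fibroblasts over mural, endothelial and Schwann cells (4.71) was 4.78 with the stricter filter and 4.99 at resolution 0.5, both with no mural class in the reference, and 4.55 with the looser filter, 5.46 with the gate, 5.29 without cells of 2 compartments, 4.87 as a mean over cells, 4.35 in suffix 1, 5.03 in suffix 2 and 5.54 without cells of 10 or more Dcn UMIs, an alternative chosen after seeing the data. The log2 ratio of Dcn in dermal-papilla-like over other fibroblasts (-4.97) was -5.93 with the stricter and -4.87 with the looser filter, -6.14 at resolution 2, -6.09 with the gate, -4.16 without cells of 2 compartments, -3.70 as a mean over cells, -5.45 in suffix 1 and -3.04 in suffix 2. The phagocyte level (0.342% of that in fibroblasts) was 0.288% with the stricter filter, 0.488% with the gate, 0.281% without cells of 2 compartments, 0.371% as a mean over cells and 0.270% without phagocytes that held a fibroblast marker UMI. The thinned share with Ogn was 13.3% in place of 27.3% of Schwann cells with the stricter filter, which left 30 of them, and 38.0% in place of 50.1% of fibroblasts when thinned to 1000 UMIs. The sign turned in 4 of 146 alternative log2 ratios of single genes, those of Aspn in dermal-papilla-like cells (0.14) with the stricter filter (-0.0577) and in suffix 1 (-0.26), that of Ogn in the Igfbp2 group (-0.72) at resolution 0.5 (0.25) and that of Ogn in fibroblasts over Schwann cells (0.50) in suffix 1 (-0.58). The 2-fold limit was crossed by Bgn in dermal-papilla-like cells (-0.86), with the stricter filter (-1.20), at resolution 2 (-1.22), with the gate (-1.33) and in suffix 1 (-1.10), by Bgn in fascia-like cells (-1.34), with the looser filter (-0.58) and at resolution 2 (-0.59), and by Ogn there (0.85), with the looser filter (1.59), the gate (1.26) and in suffix 1 (2.00). It was also crossed by Aspn in the Inmt group (-2.75) with the gate (-0.86), by Lum in the Igfbp2 group (1.80) at resolution 0.5 (0.50) and with the gate (0.92), and by Bgn in lymphatic over vascular endothelial cells (1.40) with the stricter filter (0.81) and in suffix 1 (0.96). Bgn in fibroblasts over mural cells (0.58) crossed it in suffix 1 (1.08), Prelp in fibroblasts over lymphatic endothelial cells (-0.69) in suffix 1 (-1.13), and Ogn in fibroblasts over Schwann cells (0.50) with the stricter filter (1.09), as a mean over cells (1.35) and in suffix 2 (1.36). Ogn in the Igfbp2 group (-0.72) crossed it in 8 alternatives. No group carried the name of the Cilp group under other filters, resolutions or the gate, which gave no value for it. The causes were not tested.

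The dermal-papilla-like class ranged from 29 to 113 cells over the alternatives, and no mural class was named with the stricter filter or at resolution 0.5, which therefore gave no value for it. Classes of 20 to 60 cells limit the precision, and neither age nor the spread between mice can be read from 2 libraries.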
